A study of Mus musculus with 2 samples.

Results

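Open chromatin in the intergenic sequence just upstream of genes was examined in the mouse limb at embryonic day 11.5, where DNase-seq had been run on 2 biological replicates. DNase I cuts DNA that is not wrapped tightly in nucleosomes, and the regions rich in cuts are called as peaks. The regions described here are the 5240 shared peaks, of 115658 on chromosomes 1 to 19, that lay between genes and 1 to 10 kb upstream of a protein-coding gene. A shared peak is the union of peaks of both libraries that overlapped by at least 1 bp. Its centre had to lie in no annotated gene of any type and had to be 1 to 10 kb upstream, by the gene's strand, of the nearest start of a protein-coding transcript. These upstream peaks made up 4.53% of the shared peaks (Wilson 95% interval 4.41 to 4.65, which covers counting error only).

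The labels give 1 group, healthy limb tissue of strain B6NCrl from male and female embryos that were pooled, with no treatment and no second condition. The tissue was a mixture of cell types, and the labels do not say whether fore- and hindlimbs were both taken. For replicate 2 the labels name 2 sequencing instruments, and for replicate 1 they name no instrument. With 1 group of 2 libraries no test between conditions exists, so values are given per library and classes of peak are set side by side as a description. In bulk tissue, fewer cells that hold a site and a less accessible site in each cell cannot be told apart.

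The sequence upstream of a gene's core promoter can hold enhancers, which transcription factors bind to raise transcription of a gene, insulator sites bound by CTCF, which limit contacts between chromatin domains, and starts of transcripts missing from an annotation. The limb bud at this stage is a core of mesenchyme under a sheet of ectoderm, with a thickened apical ridge that drives outgrowth. Muscle precursors, vessels, nerves and blood enter it from the body. Assignment to the nearest start names a neighbour and does not show which gene a peak acts on.

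To show what these regions hold, the reference sequence of 10 of them is given, each named by the gene of its nearest start. They are the strongest upstream peaks with each of several transcription factor words, and upstream peaks of Gdf5, Ier2, Id3 and Sp9, which are described further on. Strength is the mean of the deposited signal in the 2 libraries. All are on the plus strand of GRCm38 (mm10), from the RefSeq genome sequence, with the matched word in capitals on whichever strand it was found.
Stard10, CTCF word, chr7:101310736-101310885: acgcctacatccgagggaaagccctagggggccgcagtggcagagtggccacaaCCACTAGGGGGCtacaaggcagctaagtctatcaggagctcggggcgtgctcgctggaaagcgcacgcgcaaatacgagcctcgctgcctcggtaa
Shisal2a, NFI word, chr4:108387696-108387865: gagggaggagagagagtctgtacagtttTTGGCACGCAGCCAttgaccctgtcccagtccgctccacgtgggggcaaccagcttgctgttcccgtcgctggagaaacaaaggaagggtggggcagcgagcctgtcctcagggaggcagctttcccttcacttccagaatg
Foxo3, TWIST-like E-box, chr10:42277696-42277885: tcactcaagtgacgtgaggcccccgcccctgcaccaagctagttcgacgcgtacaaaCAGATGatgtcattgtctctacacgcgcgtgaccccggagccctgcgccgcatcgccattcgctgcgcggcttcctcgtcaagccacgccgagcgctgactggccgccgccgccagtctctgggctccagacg
Trappc9, E-box with homeodomain site, chr15:73069036-73069205: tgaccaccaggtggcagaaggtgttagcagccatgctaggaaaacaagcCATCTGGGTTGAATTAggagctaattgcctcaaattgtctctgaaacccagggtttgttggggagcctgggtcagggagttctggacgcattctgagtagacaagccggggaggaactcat
Gdf5, E-box with homeodomain site, chr2:155949456-155949625: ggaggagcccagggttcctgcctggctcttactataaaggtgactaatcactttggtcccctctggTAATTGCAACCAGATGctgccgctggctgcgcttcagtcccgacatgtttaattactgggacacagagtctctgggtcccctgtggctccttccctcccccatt
Rmnd5b, GLI word, chr11:51638056-51638245: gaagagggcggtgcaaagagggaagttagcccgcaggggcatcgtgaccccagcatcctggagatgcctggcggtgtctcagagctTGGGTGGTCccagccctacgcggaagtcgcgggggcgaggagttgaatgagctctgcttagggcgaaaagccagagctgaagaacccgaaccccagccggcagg
Tubb4b, GRHL word, chr2:25228656-25228845: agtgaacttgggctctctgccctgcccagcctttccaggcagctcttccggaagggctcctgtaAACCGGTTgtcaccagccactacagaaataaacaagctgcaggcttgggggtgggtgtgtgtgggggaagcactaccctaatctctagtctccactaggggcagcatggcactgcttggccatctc
Ier2, ETS word, chr8:84664016-84664185: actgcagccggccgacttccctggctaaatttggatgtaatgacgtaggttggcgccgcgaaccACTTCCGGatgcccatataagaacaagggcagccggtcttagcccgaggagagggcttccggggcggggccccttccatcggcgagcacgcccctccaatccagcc
Id3, RFX word, chr4:136140416-136140585: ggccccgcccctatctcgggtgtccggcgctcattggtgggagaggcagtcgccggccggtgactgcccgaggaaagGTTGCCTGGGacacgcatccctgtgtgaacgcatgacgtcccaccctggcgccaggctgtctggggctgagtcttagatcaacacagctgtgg
Sp9, homeodomain word, chr2:73264056-73264225: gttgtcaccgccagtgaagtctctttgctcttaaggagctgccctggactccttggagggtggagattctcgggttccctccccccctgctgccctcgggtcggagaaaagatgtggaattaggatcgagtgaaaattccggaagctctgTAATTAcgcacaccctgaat

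The words in capitals are short recognition sequences. The CTCF word is the core of the insulator protein's site and is named only. The NFI word, for the nuclear factor I family, is TTGGC and GCCA with 5 bases between them. The TWIST-like E-box is CATCTG, bound by basic helix-loop-helix factors such as TWIST1, which the limb mesenchyme needs. In the composite word the same E-box is followed, after 0 to 8 bases, by the homeodomain core TAATT or AATTA. The GLI word GACCACCCA is the site of the transcription factors of Hedgehog signalling, the GRHL word AACNGGTT that of the epithelial grainyhead-like factors, the ETS word CCGGAAGT that of ETS factors, the RFX word, GTTGCC and GG with 2 bases between them, that of RFX factors, and TAATTA that of many homeodomain proteins. In the Tubb4b peak 2 overlapping GRHL matches, 1 on each strand, made up the capitals, and the Sp9 peak likewise held its palindromic homeodomain word on both strands. The match was on the minus strand for the Foxo3, Gdf5, Rmnd5b and Ier2 peaks.

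The strongest CTCF-bearing peak lay 6275 bp upstream of Stard10, a lipid transfer protein, with a deposited signal of 122 in replicate 1 and 117 in replicate 2. The Gdf5 peak had a signal of 107 in replicate 1 and 75 in replicate 2 and lay 4174 bp upstream of this growth factor gene, which marks the forming joints. The composite-word peak of Trappc9, a gene for a vesicle trafficking protein, had 103 and 90 in replicates 1 and 2. For scale, signals in the 2 lists ran between 2 and 150, and both of these peaks were above the middle of their class in each library.

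Upstream peaks were densest close to the gene. Over the 101.8 Mb of intergenic sequence that could hold an upstream peak there were 51.5 shared peaks per Mb, against 54.8 per Mb in introns 1 to 10 kb downstream of a start and 40.5 per Mb in intergenic sequence 10 to 100 kb upstream. The upstream density was thus 1.27 times that of the more distant sequence (1.23 to 1.32, counting error only) and 0.940 times that of introns (0.908 to 0.974). Each library's own peaks gave a ratio to the distant sequence of 1.31 in replicate 1 and 1.25 in replicate 2. The zone held 7787 own peaks in replicate 1 and 7351 in replicate 2, or 7569 ± 308 (SD, n = 2).

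By distance, the density of shared peaks was 82.0 per Mb at 1 to 2 kb, 52.6 at 2 to 3 kb, 45.9 at 5 to 6 kb and 39.0 at 9 to 10 kb. Beyond the zone it was 40.9 per Mb at 10 to 20 kb, and within 1 kb upstream it was 571 per Mb. The first kb of the zone carried part of the difference from the distant sequence: from 2 to 10 kb the ratio was 1.15. Both libraries gave this shape from their own peaks, with 136.9 and 120.8 per Mb at 1 to 2 kb and 56.3 and 53.1 per Mb at 9 to 10 kb in replicates 1 and 2.

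**Figure D1:**
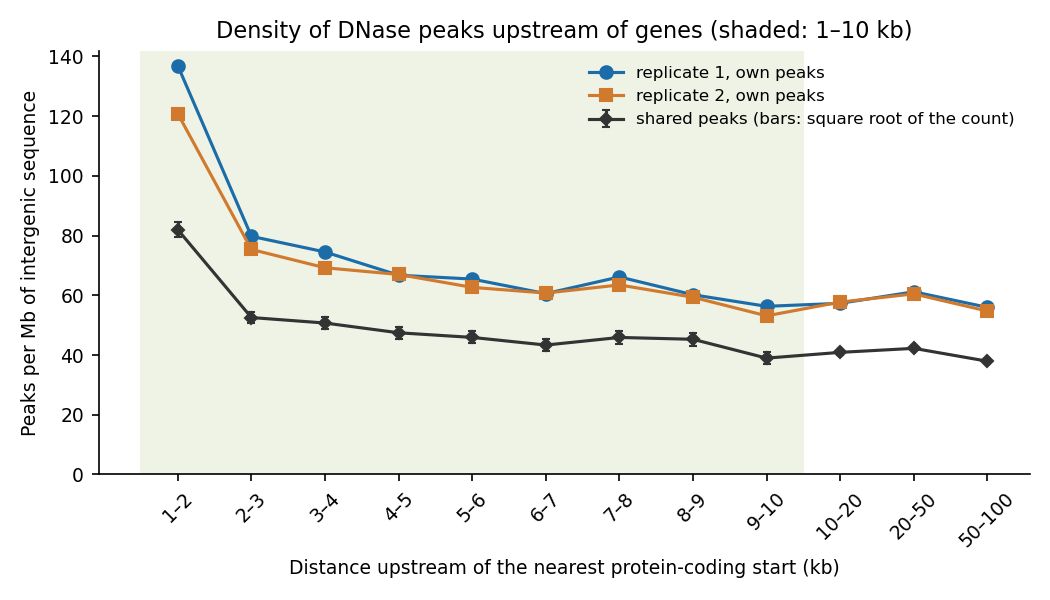
Peaks per Mb of eligible intergenic sequence (y axis) against distance upstream of the nearest protein-coding start in kb (x axis, bins of unequal width past 10 kb), for each library's own peaks and for shared peaks, with bars of the square root of the count. All 3 lines are highest at 1 to 2 kb, where shared peaks reach 82.0 per Mb, and lower in every other bin, with small rises and falls past 6 kb.

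Values at the limits of the rule varied from peak to peak on both sides. Just inside 1 kb, a peak 1001 bp from Med26 had a signal of 69 and 47 in replicates 1 and 2, and one 1001 bp from Prima1 had 42 and 41. Just outside, a peak 1000 bp from Ccdc6 had 54 and 42 and one 1000 bp from Setbp1 had 97 and 99. At the far limit, the last peaks inside lay 10000 bp from Cbfa2t2, with 49 and 35, and 9999 bp from Olfr1177-ps, with 72 and 44, while outside it a peak 10001 bp from Ilk had 85 and 70 and one 10006 bp from Mob2 had 86 and 74.

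Upstream peaks were somewhat stronger than intron peaks and distant intergenic peaks. Their median deposited signal was 60 in replicate 1 and 49 in replicate 2, against 54 and 45 for intron peaks 1 to 10 kb downstream, 54 and 44 for intergenic peaks 10 to 100 kb upstream and 77 and 76 for promoter peaks, whose centre lay within 1 kb of a start. Ranked within its own list, the median upstream peak stood at percentile 67.6 in replicate 1 and 64.2 in replicate 2, or 65.9 ± 2.41 (SD, n = 2), against 60.0 ± 0.987 for introns and 59.3 ± 1.94 for the distant intergenic class. The upstream class was the highest of these 3 in both libraries. Within the distant class, however, peaks at 10 to 20 kb had medians of 59 and 48 in replicates 1 and 2, close to the upstream class. At 20 to 50 kb the medians were 53 and 43, so the signal did not drop at the 10 kb limit. All shared peaks together had median signals of 56 and 48 and percentiles of 63.2 and 63.1 in replicates 1 and 2, close to the upstream class. The ranking was over all autosomal peaks of a library, shared or not. Within the zone the median signal hardly varied with distance, from 57 to 62 in replicate 1 and from 47 to 52 in replicate 2 over the 1-kb bins.

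**Figure D2:**
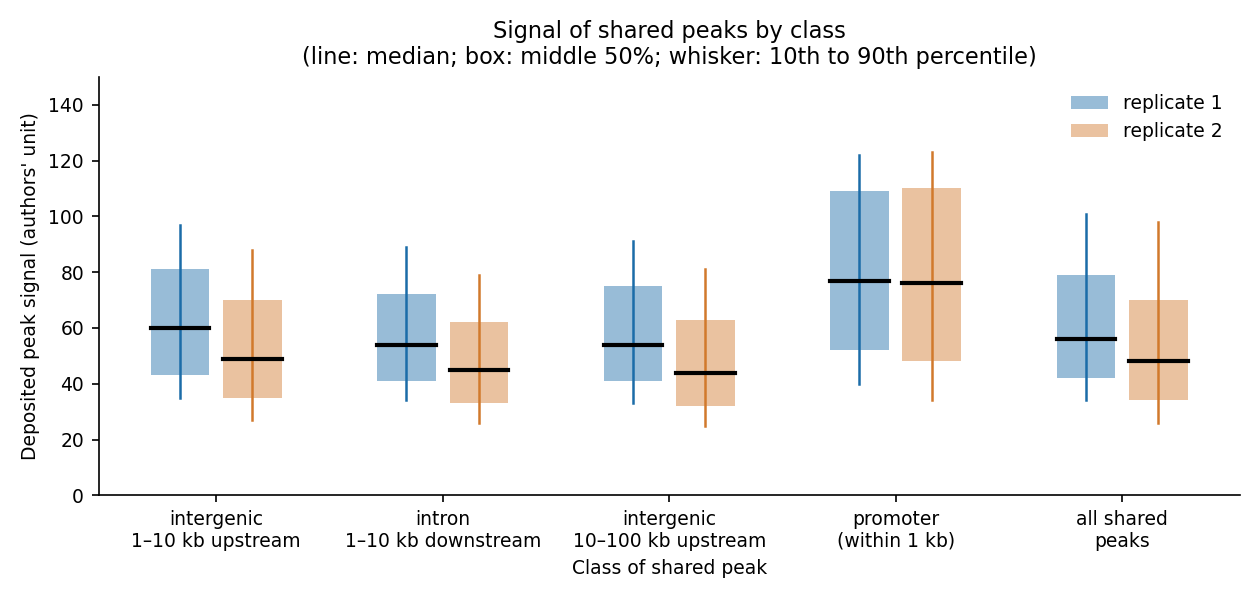
Deposited signal per shared peak (y axis, the authors' unit) for 5 classes of shared peak (x axis) in replicate 1 and replicate 2, as the median (line), the middle 50% (box) and the 10th to 90th percentile (whisker). The upstream class, at the left, has medians of 60 and 49, above the intron and distant intergenic classes and below promoter peaks in both libraries.

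The wider hotspots around the peaks gave the same order in part. A hotspot at the ceiling of the deposited −log10 q, written as 100, held 59.0% of upstream peaks in replicate 1 and 57.2% in replicate 2, against 50.5% and 49.0% of intron peaks, 54.3% and 50.2% of distant intergenic peaks and 79.1% and 83.5% of promoter peaks. Over all shared peaks the shares were 57.7% and 55.9%, so the upstream class stood near the whole set. The 2 libraries ranked the upstream peaks alike, with a Spearman rho of 0.916 across the 5240 regions, given as a description since regions of 1 tissue are not replicates.

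The strongest upstream peaks lay near genes of varied function and reached the level of promoters. The strongest was 1036 bp upstream of Zc3h4, a zinc finger protein that limits noncoding transcription, with 131 in replicate 1 and 140 in replicate 2 (chromosome 7, 16400076 to 16400265). The second, 7798 bp upstream of the orphan nuclear receptor gene Nr4a1, had 135 and 134 (chromosome 15, 101246376 to 101246565). It was followed by peaks of Kdm5b, a histone H3K4 demethylase, with 132 and 133, Ptma, which encodes prothymosin alpha, with 133 and 131, and Igf2bp3, an RNA-binding protein, with 128 and 136. Peaks of Cirbp, Foxo3, Trappc9, Id3 and Irx5 completed the first 10, with 131 to 133 in replicate 1 and 128 to 132 in replicate 2. All 10 had a GC content of 59.3% or more and CpG at 0.6 or more of its expected frequency.

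Some of these stood beside the start of another transcript. The Irx5 peak lay 71 bp from a RefSeq transcript start, which is also a noncoding start in GENCODE, the Zc3h4 peak 312 bp from one, and the Id3 peak 1717 bp from the nearest. Of all upstream peaks, 589 (11.2%) had a RefSeq start of any kind within 1 kb, against 10.6% of intron peaks and 5.98% of distant intergenic peaks. The share was 24.0% at 1 to 2 kb, 8.06% at 2 to 5 kb and 7.43% at 5 to 10 kb. RefSeq placed 19.4% of the upstream peaks inside a gene, although by the rule none lay inside a gene of the GENCODE annotation.

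Near the start the hotspot of an upstream peak often reached into the promoter window. At 1 to 2 kb it extended to within 1 kb of the start in 38.2% of cases in replicate 1 and 43.1% in replicate 2, against 1.91% and 2.44% at 2 to 5 kb. Beyond 5 kb the share was 0.0900% in each library. The median hotspot at 1 to 2 kb was 361 bp wide in replicate 1 and 436 bp in replicate 2. A peak farther out could reach the window only with a wider hotspot, so the fall with distance is largely set by the measure.

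Sequence composition set the upstream peaks between promoters and distant sites. The median GC content of the central 150 bp was 51.3%, against 46.7% in flanks 500 bp away. Intron peaks had 51.3%, distant intergenic peaks 50% and promoter peaks 62.7%. CpG-rich centres, with over 50% GC and CpG at more than 0.6 of its expected frequency, numbered 596 (11.4%), against 8.67% of intron, 6.19% of distant intergenic and 61.6% of promoter peaks, and 19.4% of all shared peaks. CpG-rich upstream peaks had a median signal of 82 and 78 in replicates 1 and 2, against 58 and 47 for the rest, and 22.3% of them had a RefSeq start within 1 kb, against 9.82% of the rest.

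Few upstream peaks were centred in repeats, relative to the sequence that could hold them. The centre lay in sequence masked as repeat in 12.5% of upstream peaks, against 10.5% of intron, 9.69% of distant intergenic and 6.11% of promoter peaks, and 8.34% of all shared peaks. The eligible sequence itself was masked over 38.8% of its length upstream, against 28.2% in introns and 38.4% in the distant intergenic class. When the upstream peaks were cut into 4 equal groups by mean signal, those in the weakest group were masked in 18.2% of cases and those in the strongest in 7.19%.

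CTCF was the most enriched word with a sizeable count. It was present in 528 upstream peaks (10.1%, 9.29 to 10.9) and in 19 flanks (0.181%), a ratio of 55.6 (35.2 to 87.7). Flanks 1000 bp away gave a ratio of 96.0. The share was 6.47% in intron peaks, 8.14% in distant intergenic peaks, 1.13% in promoter peaks and 5.44% over all shared peaks. Own peaks of each library in the zone gave a share of 7.27% in replicate 1 and 7.26% in replicate 2, with ratios to the flanks of 33.3 and 33.4, lower than in the shared peaks. Upstream peaks with the CTCF word were strong, with a median signal of 79 and 66 in replicates 1 and 2, against 58 and 47 without it.

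Within the zone the CTCF share was lowest next to the gene, at 6.97% for 1 to 2 kb, against 11.7% at 2 to 5 kb and 10.3% at 5 to 10 kb. By signal group it was 3.21% in the weakest, 5.80% in the second, 14.8% in the third and 16.5% in the strongest. CpG-rich centres were also most frequent in the strongest group, at 25.2% against 3.97% in the weakest, but the 2 features seldom coincided: 4.17% of the CTCF-bearing peaks were CpG-rich, against 12.2% of those without the word. Signal and word were read from the same regions, so these shares are a description.

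The REST word, for the repressor of neuronal genes in other tissues, is named only and was found in 29 upstream peaks (0.553%) and 1 flank, against 0.308% of distant intergenic peaks and 0.335% of all shared peaks. The strongest of them were near Vstm2l, with 101 and 99 in replicates 1 and 2, Kcnh2, a potassium channel gene, with 107 and 88, and Syt6, a synaptotagmin gene, with 107 and 83. Ranks 4 to 6 by mean signal were near Lin28a, Eid2 and Scnn1g. Further down were Nefh, a neurofilament subunit, Chrm4, a muscarinic receptor, Cacna1i, a calcium channel, and Stmn2, a neuronal stathmin. Efcab14, Swsap1, Slc31a2 and Zkscan2 stood among them on the same list. These names were read off the list of 29 after it had been made, and how many of the 29 are neuronal genes was not counted. The NFI word was in 27 upstream peaks (0.515%), 5.40 times the flanks (2.62 to 11.1) and near the 0.479% of all shared peaks.

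Words of limb factors were near their share over all shared peaks, with differences between the classes. The TWIST-like E-box was in 820 upstream peaks (15.6%), 1.35 times the flanks (1.24 to 1.47), against 20.01% of distant intergenic peaks, 7.01% of promoter peaks and 17.1% of all shared peaks. Its composite with a homeodomain core was in 31 (0.592%), 3.44 times the flanks (1.93 to 6.15), against 0.606% of distant intergenic, 0.0410% of promoter and 0.543% of all shared peaks. The E-box CAGCTG, bound by other helix-loop-helix factors, was in 13.5%, 1.92 times the flanks, against 15.1% of all shared peaks. The upstream zone thus held both kinds of E-box less often than distant intergenic peaks, which had CAGCTG in 16.9%.

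Hedgehog and Hox words were rare. The GLI word was in 10 upstream peaks (0.191%), 2.22 times the flanks with an interval of 0.904 to 5.47 that includes 1, against 0.235% of all shared peaks. The 10 included peaks of Foxp2, with 94 and 92 in replicates 1 and 2, and Pofut2, with 103 and 72. The peak 2632 bp upstream of Cdkn2b, a cell cycle inhibitor, held the GLI word and the REST word and had 80 and 59. The word CAATAAA, preferred by posterior HOX13 proteins, was in 2.46%, 0.796 times the flanks, against 3.53% of distant intergenic and 3.30% of all shared peaks. TAATTA alone was in 3.97%, 1.09 times the flanks (0.928 to 1.29), against 4.42% of all shared peaks.

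The GRHL word of epithelial factors was in 1.43% of upstream peaks, 1.22 times the flanks (0.917 to 1.62), against 1.31% of all shared peaks. Among words usual at promoters the values differed. The GC box GGGCGGG was in 6.28%, against 4.13% of distant intergenic, 27.5% of promoter and 9.32% of all shared peaks. The ETS word was in 0.592%, against 0.290% of distant intergenic, 3.44% of promoter and 1.05% of all shared peaks. The RFX word was in 1.03%, 2.16 times the flanks, against 1.49% of distant intergenic, 1.58% of promoter and 1.38% of all shared peaks.

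The word AGATAAG of GATA factors, known from blood, was in 1.01%, only 0.561 times the flanks (0.414 to 0.759), against 0.730% of all shared peaks. A control word with no known factor, GTAAGG, was in 3.59%, 0.793 times the flanks (0.672 to 0.936), against 4.13% of all shared peaks. The base composition of centres and flanks differed, and its part in these ratios was not tested.

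Of the 30 words searched on both strands, 13 were at 1.5 times the flanks or more with an interval above 1. Besides those above, they were CREB (TGACGTCA), E-box CACGTG, AP-2 (GCCNNNGGC), NFY (CCAATCA) and NRF1 (GCGCATGC). The words below that limit also included TEAD (GGAATG), at 1.39 times the flanks, PBX-HOX (TGATTNAT), MEIS (TGACAG), LEF-TCF (CTTTGAT), SOX (ACAATGG), RUNX (TGTGGTT), AP-1 (TGANTCA), YY1 (AAGATGGC), the CACCC box (GGGTGTGG) and DR1 (AGGTCANAG). The composite word contains the TWIST-like E-box, so these counts overlap. A match is a description of letters and not a bound site.

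**Figure D3:**
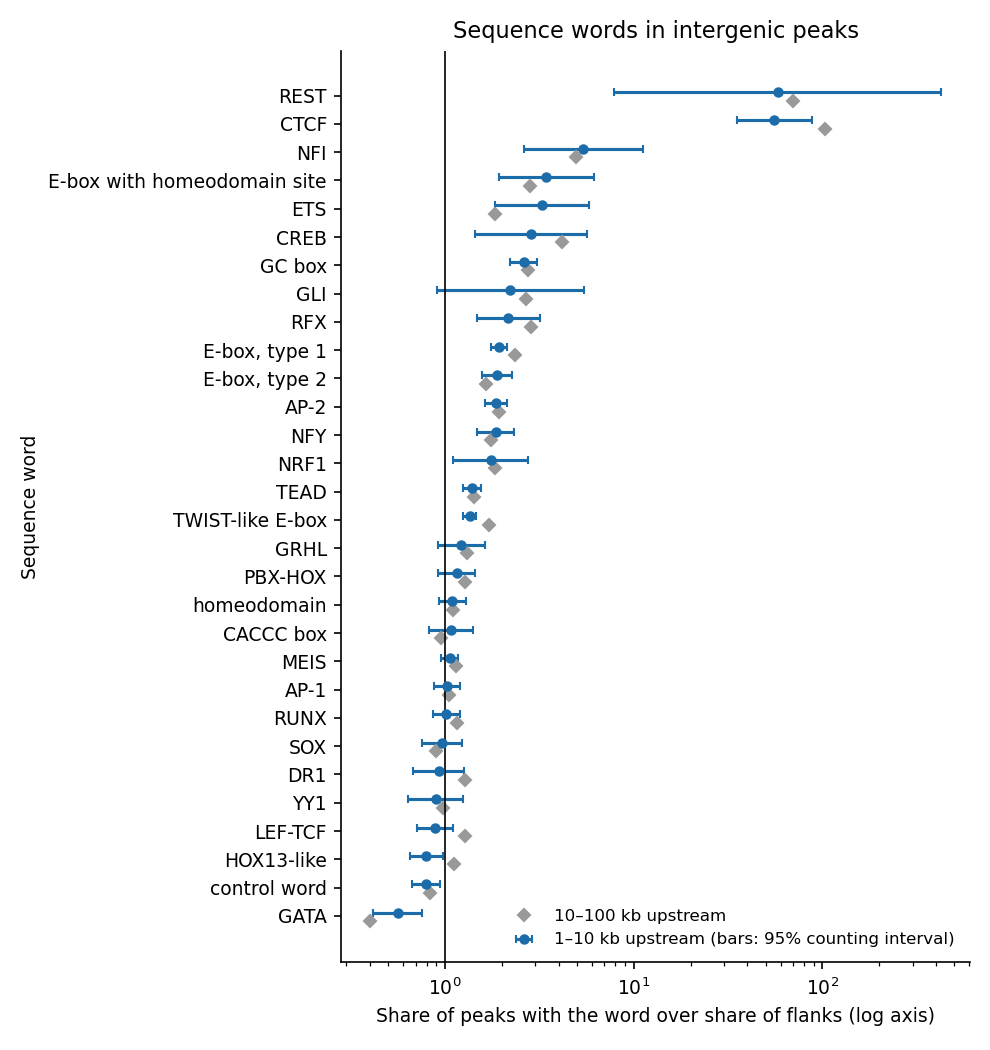
Ratio of the share of upstream peaks with a word in the central 150 bp to the share in flanks 500 bp away (x axis, log scale) for 30 words (y axis), with bars of the 95% counting interval, beside the ratio for intergenic peaks 10 to 100 kb upstream (grey diamonds). E-box type 1 is CAGCTG and type 2 is CACGTG. CTCF (55.6) and REST (58.0) stand far to the right of all other words, and GATA (0.561) has the lowest ratio.

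Upstream peaks were unevenly spread over genes. Of 20807 protein-coding genes, 3644 (17.5%) had at least 1, 1024 had 2 or more, 313 had 3 or more and 62 had 5 or more. Of the 14273 genes with 1 kb or more of eligible sequence, 3577 (25.1%) had at least 1. A shared peak at the promoter itself was present in 78.2% of genes with an upstream peak and in 93.5% of genes with 5 or more, against 65.6% of genes with none, 58.6% of those with none and 1 kb or more of eligible sequence, and 67.8% of all genes. Between divergent genes lay 2385 upstream peaks (45.5%) at 55.2 per Mb, and between genes in tandem 2852 (54.4%) at 48.9 per Mb.

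The genes with the most upstream peaks included many developmental regulators. Tnrc18 (chromosome 5, 142724661 to 142817662), Sp9 (chromosome 2, 73271925 to 73284706) and Pax3 (chromosome 1, 78101267 to 78197134) had 10 each. Sp9 encodes a zinc finger factor of the apical ridge and Pax3 the paired-box factor of migrating muscle precursors. Otp, a homeodomain factor of the hypothalamus, and Tshz3, a teashirt-family zinc finger factor, had 9 each. Kdm6b, a histone H3K27 demethylase, Shf, an adaptor protein, Foxc1, a forkhead factor of embryonic mesenchyme, and Hoxc13 had 8 each.

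These sets, chosen for their number of peaks, differed in strength. The 10 peaks of Tnrc18 ran from 31 to 116 with a median of 88 in replicate 1 and from 30 to 122 with a median of 86.5 in replicate 2. Those of Sp9 ran from 28 to 82 with a median of 39 in replicate 1 and from 28 to 79 with a median of 40 in replicate 2. Pax3 peaks ran from 25 to 67 in both libraries, with medians of 40 and 35.5, whereas the 8 Kdm6b peaks reached 124 and 127 in replicates 1 and 2. The 8 Hoxc13 peaks were all weak, from 29 to 51 in replicate 1 and from 29 to 42 in replicate 2. None of the peaks of these 9 genes held the CTCF word. The strongest peaks of Tnrc18, Kdm6b, Pax3 and Shf lay 47, 489, 851 and 868 bp from a RefSeq transcript start. Those of Sp9, Otp, Tshz3, Foxc1 and Hoxc13 lay 1467 to 7785 bp from the nearest one.

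**Figure D4:**
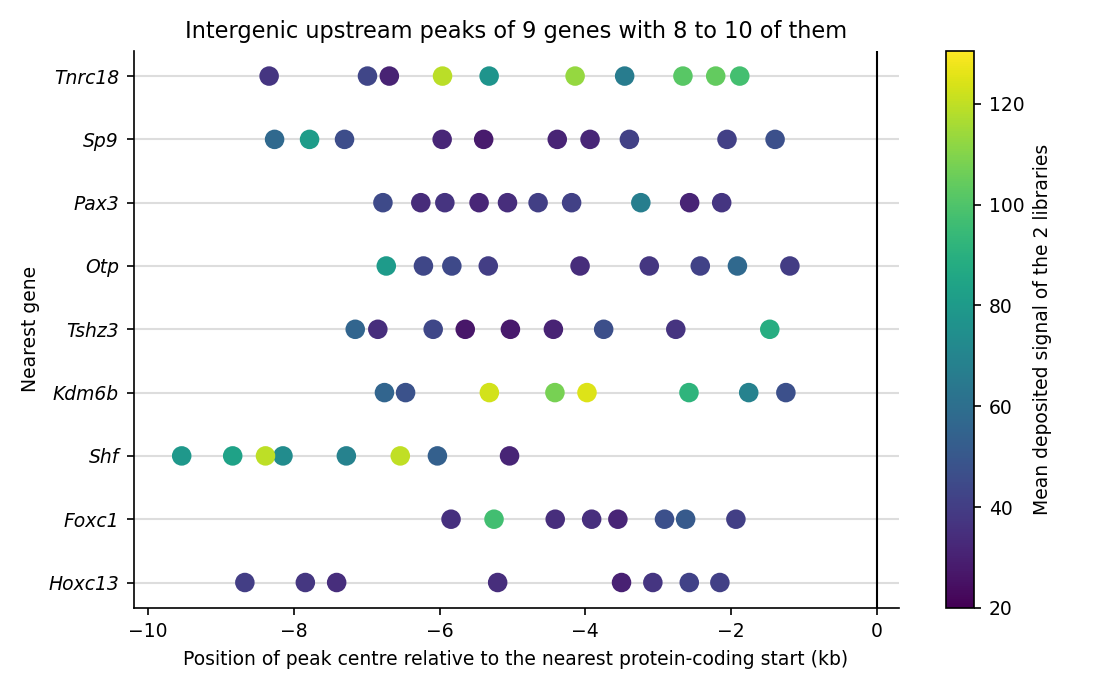
Position of each upstream peak's centre relative to the nearest protein-coding start in kb (x axis) for 9 genes with 8 to 10 of them (y axis), coloured by the mean deposited signal of the 2 libraries. Tnrc18 and Kdm6b hold several peaks with a mean above 90 and Shf holds 2, while the peaks of Sp9, Pax3 and Hoxc13 are mostly below 60.

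Genes of the limb mesenchyme often had an upstream peak. Of 35 transcription factor genes of this tissue 17 did, or 48.6% against 17.5% of all genes, with a median eligible upstream sequence of 7.07 kb per gene against 5.53 kb over all genes. Tbx18, a T-box factor, had 7 peaks, from 41 to 89 in replicate 1 and from 40 to 86 in replicate 2. Sall3 had 6, Msx1, the homeodomain factor of the progress zone, 5, and Meis1, which marks the proximal limb, 5. Single strong peaks lay upstream of Tbx4, the hindlimb T-box factor, with 123 and 122, of Prrx2, with 110 and 93, of Twist1, with 98 and 95, and of Lmx1b, which gives dorsal identity, with 94 and 97, in replicates 1 and 2. Tbx2, Tbx3 and Pitx1 had none, and for these no eligible base lay in the zone.

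Signals and receptors that pattern the limb had single upstream peaks. Of 25 genes 7 had a peak, 28.0% against 17.5% of all genes, and each of those had 1, with a median of 8.65 kb of eligible sequence. Bmp2 had a peak of 90 in replicate 1 and 76 in replicate 2, Wnt5a, a signal for outgrowth, one of 78 and 86, and Wnt7a, the dorsal ectoderm signal, one of 65 and 50. Of 15 distal and posterior Hox genes 4 had any: Hoxa13 had 7, from 30 to 76 in replicate 1 and from 31 to 69 in replicate 2, Hoxd12 had 2 strong ones, with 98 and 101 in replicate 1 and 99 and 107 in replicate 2, Hoxc10 had 2 and Hoxb8 1. The Hox genes had little room, with a median of 2.35 kb of eligible sequence, and their share was 26.7% against 17.5% of all genes. Of 15 cartilage and bone genes 3 had 1 each, among them Gdf5 and Nkx3-2, a homeodomain factor of early cartilage, with 115 and 95 in replicates 1 and 2.

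Ectoderm genes and immediate early genes had the highest shares. Of 20 genes of the surface ectoderm and ridge 12 had an upstream peak, 60.0% against 17.5% of all genes. The list was led by Sp9 with 10 and its relative Sp8 with 6. Its median eligible sequence was 9 kb, against 5.53 kb over all genes. The Sp8 peaks ran from 40 to 72 in replicate 1 and from 32 to 64 in replicate 2, and Trp63 and Krt14, epithelial markers, had 1 weak peak each, with 37 and 35 and with 37 and 24. Of 18 immediate early genes, which respond to stimuli within minutes, 11 had a peak, 61.1%, with a median of 7.96 kb of eligible sequence. Jund had 5, from 35 to 104 in replicate 1 and from 34 to 108 in replicate 2, Ier2 had 2, with 104 and 125 in replicate 1 and 99 and 128 in replicate 2, and Atf3 had 1, with 111 and 114.

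Lists of other cell types were mixed. Only the neural (15.4%) and liver (8.33%) lists had a smaller share with a peak than the 17.5% of all genes. White blood cell genes (42.9%) and germ cell genes (41.7%) came near the 48.6% of the mesenchyme factors, with 95% intervals that overlapped theirs. Red cell genes stood at 33.3% and muscle precursor genes at 26.7%, and endothelial genes lay between germ cell and red cell genes. A high share was thus not particular to the mesenchyme list. Muscle precursor genes had a peak in 4 of 15, led by Pax3 with 10, endothelial genes in 6 of 15, led by Fli1 with 7 and Nrp1 with 3, and red cell genes in 4 of 12, with Tal1 and Gfi1b at 2 each. White blood cell genes had one in 6 of 14 although only 2 of the 14 had a shared promoter peak: Spi1, the myeloid regulator, had 3, from 33 to 42 in replicate 1 and from 28 to 34 in replicate 2, and Laptm5 had 1, with 100 and 91. The list drawn up for germ cells and pluripotency had a peak at 5 of 12 genes, led by Prdm14 with 3. Those 5 included Tfap2b, an AP-2 factor gene not specific to these cells, with 2. Housekeeping genes had one in 5 of 16, with Eef2 at 3. Neural genes had a peak in 2 of 13, namely Neurog1 with 3 and Neurog2 with 2, heart genes in 2 of 10, namely Nkx2-5 with 2 and Myh7 with 1, and liver genes in 1 of 12, Foxa2.

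**Figure D5:**
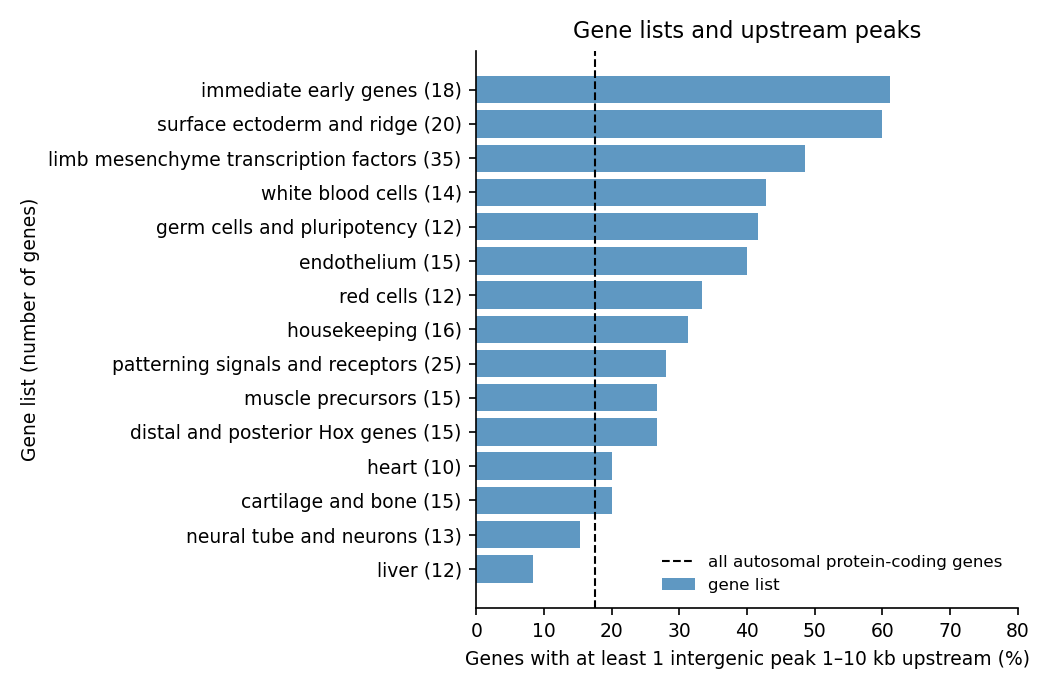
Percent of the autosomal genes of each list with at least 1 upstream peak (x axis) for 15 lists (y axis, number of genes in brackets), beside the 17.5% of all autosomal protein-coding genes (dashed line). Immediate early genes (61.1%) and ectoderm genes (60.0%) are at the top, and liver genes (8.33%) and neural genes (15.4%) lie left of the line.

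The markers of the labelled tissue had open promoters. All 12 limb mesenchyme markers had a shared promoter peak, which 67.8% of all genes had, and 8 of them had an upstream peak, against 17.5% of all genes. Of the other cell types, promoter peaks were present at 7 of 9 ectoderm, 2 of 6 endothelial, 1 of 4 red cell, 0 of 5 white cell, 3 of 5 muscle, 4 of 4 neural, 1 of 3 heart and 0 of 3 liver markers. The red cell globin genes Hbb-y and Hba-x had no promoter peak. Upstream peaks were present at 5 of 9 ectoderm, 3 of 5 white cell and 3 of 5 muscle markers. They were also present at 1 of 6 endothelial, 1 of 4 red cell (Hbb-y), 1 of 4 neural, 1 of 3 heart and 0 of 3 liver markers. Holding an upstream peak was thus not particular to the mesenchyme markers. A promoter peak does not give a number of cells, and the part of other cell types in the upstream peaks was not tested.

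The 2 libraries agreed well on strong upstream peaks and poorly on weak ones, as they did for other classes of peak. Overlap with a peak of the other library was found for 69.5% of the own peaks of replicate 1 in the zone and for 73.9% of those of replicate 2, 2 directions of 1 comparison. Among the weakest of 4 signal groups of each library's peaks the shares were 30.7% and 37.7%, and among the strongest 98.4% and 97.9%. In the shared set 68.8% of upstream peaks had percentiles within 10 points of each other. By more than 30 points, 84 were higher in replicate 1 and 43 in replicate 2. The Hat1 peak, at 56 in replicate 1 and 19 in replicate 2, and the Slc22a30 peak, at 22 and 41, were the farthest apart in either direction.

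Some genes had a block of upstream peaks in 1 library that the other lacked. Among 5121 genes with an own peak in the zone in either library, 46.2% had equal numbers and 41.8% differed by 1, while 20 had at least 5 more in replicate 1 and 22 at least 5 more in replicate 2. Pax2, a paired-box factor of kidney and neural tissue, had 18 own peaks in replicate 1 and 4 in replicate 2, and Barhl2, a neural homeodomain factor, 13 and 1. In the other direction, Pou3f2, a neural POU factor, had 0 in replicate 1 and 13 in replicate 2, Mnx1, the motor neuron homeodomain factor, 0 and 11, and Neurog2 2 and 10. Meis1 had 6 in replicate 1 and 15 in replicate 2. These genes were chosen after their values had been seen, and what set the libraries apart there was not tested.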

How the data were processed

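DNase-seq peaks and hotspots of 2 limb libraries were used. Per the labels and file descriptions, regions came from the filtered mm10 alignment of 1 library at a time. Aligner and caller are unnamed in these sources. The deposited peak signal (2 to 150, intervals of 150 bp) is the authors' value per peak and its scaling is not stated. It was used only within a list. The deposited hotspot −log10 q ran from 1.30 to 6 and then stood at 100. Read depth is unknown.

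Centres were classified against GENCODE M21 on GRCm38, with starts of protein-coding transcripts of protein-coding genes. Words were searched on both strands in the central 150 bp and in flanks 500 bp to either side. Intervals are Wilson or log-ratio intervals at 95% over regions and cover counting error only. No test was possible with 1 group. The steps were tested on simulated data. Python 3.11.15, NumPy 2.4.6, SciPy 1.17.1 and pandas 2.3.3 were used. The regions, gene lists and words were chosen with earlier results of these data known. Named were the 10 strongest upstream peaks, the 10 genes with the most, the 2 genes with the most in each list and the strongest peak with each of 6 words. Other peaks and genes named were picked after values were seen. Some genes that this rule names are not reported here.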

Additional observations from a re-analysis of the deposited data

How the results depend on the processing

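No paired analysis was possible because there is 1 group of 2 libraries. Of 84 values under alternatives, 61 stayed within the 95% interval of the reported value (counts within 1.5 times it) and 23 moved. No direction turned. With peaks above the median signal of their library only, 3205 upstream peaks remained, with a density ratio of 1.47 to distant sequence, median signals of 77 and 65, a CTCF share of 13.9%, a median GC of 52.7% and a promoter peak at 75.7% of their genes; this setting keeps strong peaks by construction. From 2 to 10 kb the density ratio was 1.15 and the CTCF share 10.9%. Each library's own peaks, leaving out the other, gave 7351 to 7787 peaks, median signals of 47 in replicate 1 and 40 in replicate 2, CTCF shares of 7.26% to 7.27%, CTCF ratios to flanks of 33.3 to 33.4, a median GC of 50.7% in both and a promoter peak at 80.2% to 80.4% of the genes. An overlap of at least 50% of a peak gave a median signal of 62 in replicate 1 and a promoter peak at 76.8% of the genes, and 1 start per gene gave 73.9%. Flanks 1000 bp away gave a CTCF ratio of 96.0. The cause was not tested for the last 3. Starts of all transcripts of protein-coding genes, added after the data had been seen, gave 5187 upstream peaks. The unknown depth limits what weak peaks can show.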

Other observations

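By the same rule, chromosome X, which the report leaves out, held 116 upstream peaks of 2809 shared peaks (4.13%), with a median signal of 40 in replicate 1 and 31 in replicate 2. A further 1240 autosomal shared peaks lay in no gene and 1 to 10 kb from the nearest protein-coding start, but on its downstream side.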
